A study of Mus musculus with 6 samples.

Results

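The transcripts followed here encode the enzymes that set the pace of glycolysis at its phosphofructokinase step, in the lateral cortex of mouse embryos. They are the 3 phosphofructokinase subunits Pfkl, Pfkp and Pfkm, the 3 bifunctional enzymes Pfkfb2, Pfkfb3 and Pfkfb4, and the bisphosphatase Tigar. The genes were listed by name, with earlier results of these data known, and all 7 were found among the 17068 genes of the filtered count table. Pfkfb1, the remaining gene of the PFKFB family, was not analysed here.

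The libraries came from female c57/bl6 embryos at embryonic day 12.5. The 4 control libraries carried no Cre. Controls 1, 2 and 4 had the genotype Foxp1 fl/+ and control 3 had Foxp1 fl/fl, so every control carried at least one floxed allele. The 2 Foxp1cKO libraries had the genotype Foxp1 fl/fl;Emx1Cre, in which Cre is made in progenitors of the dorsal telencephalon and their descendants, while vessel, blood and meningeal cells of the same tissue keep the floxed allele. The question was how transcript levels differ between Foxp1cKO and control cortex. The labels number the libraries but do not name litters, and p-values measure only the spread between these 6 libraries.

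As background, phosphofructokinase adds a second phosphate to fructose 6-phosphate, which commits the sugar to glycolysis. The active enzyme is a tetramer built from liver-type (PFKL), platelet-type (PFKP) and muscle-type (PFKM) subunits. PFKFB enzymes both make and remove fructose 2,6-bisphosphate, the strongest allosteric activator of phosphofructokinase. PFKFB3 mostly acts as the kinase, and its gene and that of PFKFB4 are known targets of the hypoxia-inducible factor HIF-1. TIGAR, named as a p53 target, removes the same activator and is known to favour the pentose phosphate pathway.

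The libraries held 50076008 to 78346979 counts, and a floor of 3 counts corresponded to 0.0381 to 0.0596 CPM, the unit used here for counts that TMM factors rescale so that libraries of unequal depth can be set side by side. The floor covers counting error only, while the 95% intervals of fold changes given here come from the edgeR fit and cover the spread between libraries. The members' own counting error was at most 10.5%, for Pfkfb2, and at most 3.00% for the other members. Foxp1, the targeted gene, did not have lower counts under the Foxp1cKO label: it had 59.7, 60.8, 71.2 and 79.1 CPM in controls 1 to 4 and 83.2 and 76.8 CPM in Foxp1cKO 1 and 2 (log2 fold change 0.24 ± 0.129, standard error, with an adjusted p of 0.468 by edgeR). A count over the whole gene also takes in exons outside the floxed part, and the groups are named by their labels throughout. Markers of the cortex were present, with summed levels of 2033 to 2599 CPM for 8 radial glia genes and 2745 to 4858 CPM for 7 neuron genes in the controls, and 2256 to 2354 and 3551 to 3643 CPM in the Foxp1cKO libraries. Control 4 stood apart in its red cell markers, with 3544 summed CPM against 1100 to 1451 in the other controls. In bulk tissue, fewer cells of a type and less RNA per cell cannot be told apart.

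Pfkl was higher in Foxp1cKO cortex, Pfkp and Pfkfb3 had higher values in both Foxp1cKO libraries than in any control without passing the test, and Tigar had lower values in both. Pfkm, Pfkfb2 and Pfkfb4 had overlapping values. Of the 7 genes, 1 passed the threshold of an adjusted p under 0.05 in edgeR's quasi-likelihood test over all genes. That test called 26 of 17068 genes, all higher, or 0.152% in either direction and 0.152% for higher genes, and 0% for lower genes. DESeq2's Wald test on the same counts called 4 of the 7, 3 higher and 1 lower, where it called 3.36% of the genes it tested, 2.06% as higher and 1.31% as lower. Values that did not overlap between the groups were found for 4 of the 7 genes, 3 higher and 1 lower, while 11.5% of all genes were above all controls in both Foxp1cKO libraries and 13.1% were below.

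**Figure D1:**
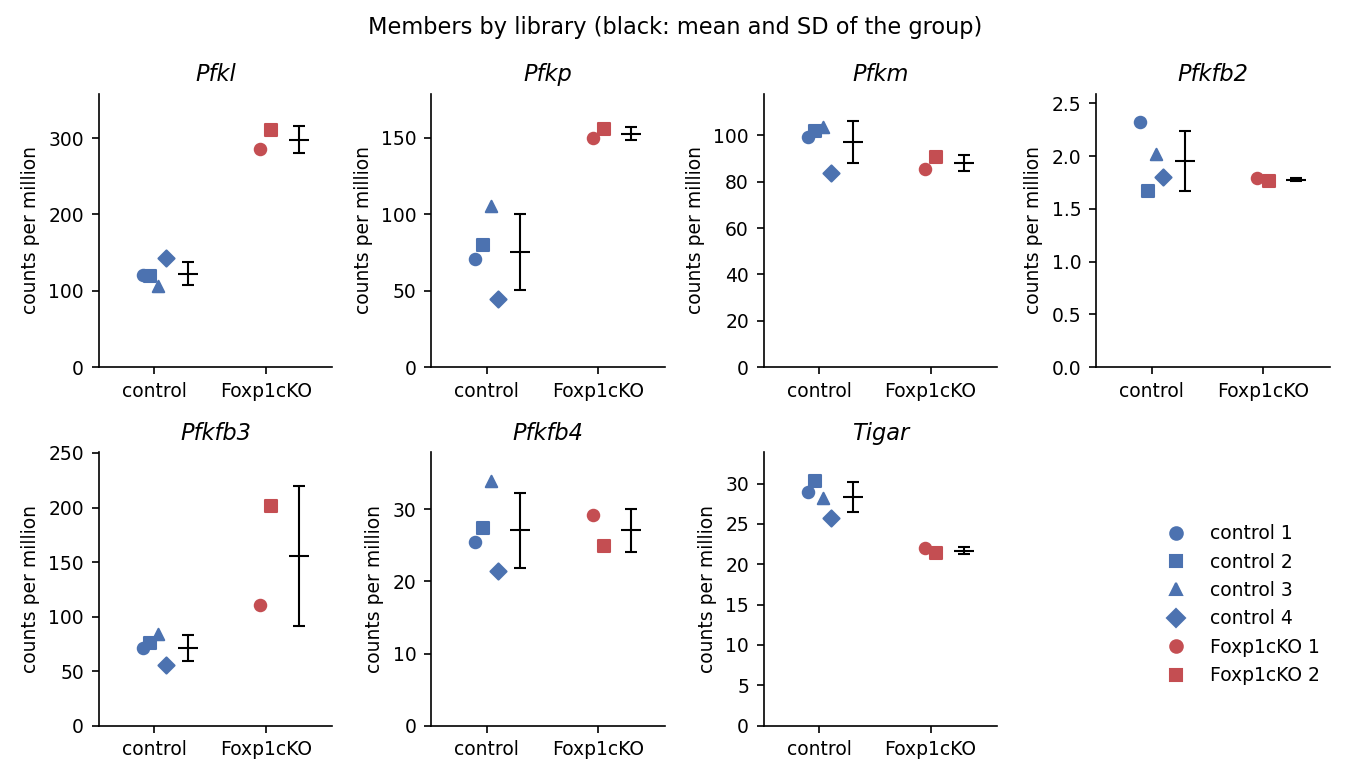
Level of each of the 7 genes in every library, in CPM on linear axes that start at 0, with 4 controls in blue and 2 Foxp1cKO libraries in red, and the mean and SD of each group in black. Both Foxp1cKO libraries lie above all controls for Pfkl, Pfkp and Pfkfb3, below all controls for Tigar, and within or across the control values for Pfkm, Pfkfb2 and Pfkfb4.

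Pfkl (ENSMUSG00000020277.10, GRCm38 chromosome 10, 77986947 to 78010083, minus strand) encodes the liver-type subunit. It had 120, 119, 106 and 143 CPM in controls 1 to 4, and 286 and 310 CPM in Foxp1cKO 1 and 2. The lowest Foxp1cKO value was thus far above the highest control, and the 2 groups' means were 298 ± 17.4 (SD, n = 2) and 122 ± 15.1 CPM (SD, n = 4). Its fold change was 2.44 (95% interval 2.02 to 2.95), or 1.29 on the log2 scale (standard error 0.116), and edgeR gave it a Benjamini-Hochberg adjusted p of 0.0162. Pfkl ranked 11 of 17068 by p. The call rested on few libraries: leaving out control 1, control 2, Foxp1cKO 1 or Foxp1cKO 2 gave adjusted p-values of 0.0946, 0.0773, 0.0850 and 0.171 by edgeR, with log2 fold changes between 1.21 and 1.34.

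Pfkp (ENSMUSG00000021196.14, chromosome 13, 6579768 to 6648777, minus strand) encodes the platelet-type subunit, which is the one best known from brain. It had 70.8, 80.0, 106 and 44.8 CPM in controls 1 to 4, and 150 and 156 CPM in Foxp1cKO 1 and 2. The controls of this gene spread over 2.36-fold, while the 2 Foxp1cKO libraries were 1.04-fold apart. On the log2 scale the difference was 1.02 (standard error 0.282, 95% interval 0.35 to 1.69), and it did not pass the edgeR test (adjusted p = 0.270). In DESeq2 it passed (adjusted p = 0.0283). In the controls its values ran with the neuron markers: control 3 was highest and control 4 lowest for both, at 4858 and 2745 summed CPM of 7 neuron genes. This was not particular to Pfkp, since Pfkm, Pfkfb3 and Pfkfb4 also had control 3 highest and control 4 lowest. Over the Foxp1cKO libraries the neuron markers summed to 3551 and 3643 CPM, within the control range. Their part in the values of these genes was not tested.

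Pfkm (ENSMUSG00000033065.14, chromosome 15, 98092589 to 98132451, plus strand) encodes the muscle-type subunit. It had 99.1, 102, 104 and 83.6 CPM in controls 1 to 4, and 85.5 and 90.4 CPM in Foxp1cKO 1 and 2. Both Foxp1cKO values lay between control 4 and the other controls. Its log2 fold change of -0.14 (standard error 0.103) had an adjusted p of 0.588 by edgeR and a 95% interval of -0.39 to 0.10, which ends below the start of the interval of Pfkl at 1.01. The 2 skeletal muscle markers in the table, Acta1 and Des, summed to at most 1.25 CPM in any library.

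Pfkfb3 (ENSMUSG00000026773.19, chromosome 2, 11471433 to 11554077, minus strand) had 71.3, 75.5, 83.7 and 55.6 CPM in controls 1 to 4, and 111 and 201 CPM in Foxp1cKO 1 and 2. Both Foxp1cKO values were above every control, but they were 1.82-fold apart from each other, the widest gap between these 2 libraries among the 7 genes. The difference on the log2 scale was 1.12 (standard error 0.242, 95% interval 0.55 to 1.70) with an adjusted p of 0.236 by edgeR and 0.00249 by DESeq2. Its size depended on which Foxp1cKO library was kept: it was 0.61 without Foxp1cKO 2 and 1.49 without Foxp1cKO 1, neither of which passed the edgeR test (adjusted p = 0.551 and 0.119).

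Pfkfb4 (ENSMUSG00000025648.17, chromosome 9, 108991778 to 109032228, plus strand) had 25.5, 27.4, 33.9 and 21.4 CPM in controls 1 to 4, and 29.2 and 24.9 CPM in Foxp1cKO 1 and 2. The Foxp1cKO values fell inside the control range, and the log2 fold change was 0.00013 (95% interval -0.43 to 0.43, adjusted p = 1.00 by edgeR). Pfkfb2 (ENSMUSG00000026409.14, chromosome 1, 130689182 to 130729253, minus strand), the isoform best known from heart, was scarce, with 2.33, 1.67, 2.02 and 1.80 CPM in controls 1 to 4, and 1.79 and 1.77 CPM in Foxp1cKO 1 and 2. Its 90 to 147 counts per library gave a wide interval around the log2 fold change of -0.14 (-0.66 to 0.38, adjusted p = 0.827 by edgeR). As fold changes the 95% intervals were 0.635 to 1.30 for Pfkfb2 and 0.744 to 1.34 for Pfkfb4, and differences within them were not excluded by these libraries.

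Tigar (ENSMUSG00000038028.9, chromosome 6, 127085116 to 127109557, minus strand) had 28.9, 30.4, 28.2 and 25.8 CPM in controls 1 to 4, and 22.0 and 21.4 CPM in Foxp1cKO 1 and 2. Both Foxp1cKO libraries lay below the lowest control, a pattern found for 13.1% of all genes. On the log2 scale it differed by -0.39 (standard error 0.0968, 95% interval -0.61 to -0.16), with an adjusted p of 0.243 by edgeR and 0.0367 by DESeq2. It was the opposite sign to Pfkfb3, whose enzyme makes the activator that TIGAR removes.

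**Figure D2:**
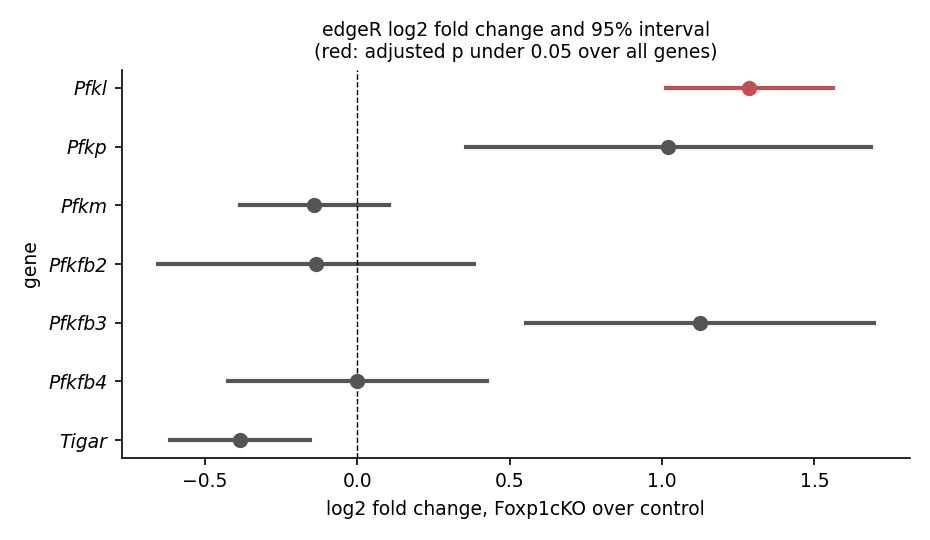
Log2 fold change of Foxp1cKO over control (x axis) for each gene (y axis), as points with 95% intervals from edgeR's quasi-likelihood fit on 4 controls and 2 Foxp1cKO libraries, with the gene that passed an adjusted p under 0.05 in red. The intervals of Pfkl, Pfkp and Pfkfb3 lie above 0 and that of Tigar below 0 before adjustment over all genes, and those of Pfkm, Pfkfb2 and Pfkfb4 include 0.

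The liver-type subunit Pfkl had the highest level of the 7 transcripts in Foxp1cKO cortex by every length used, while the place of Pfkm and Pfkl in control cortex depended on the length. Levels between genes are given as RPKM, the CPM divided by the union of the gene's exons in kilobases. In the controls Pfkm had 29.1 ± 2.74 RPKM (SD, n = 4), Pfkl 18.3 ± 2.27, Pfkfb3 9.46 ± 1.56, Tigar 7.74 ± 0.522, Pfkp 5.62 ± 1.87, Pfkfb4 5.55 ± 1.06 and Pfkfb2 0.269 ± 0.0392. The ranges over controls did not overlap between Pfkm and Pfkl, between Pfkl and Pfkfb3, or between Pfkfb4 and Pfkfb2, and the other neighbours in this order overlapped. In the Foxp1cKO libraries Pfkl came first at 44.6 ± 2.61 RPKM (SD, n = 2), above Pfkm at 26.3 ± 1.05, Pfkfb3 at 20.6 ± 8.47 and Pfkp at 11.4 ± 0.327. There the ranges of Pfkm and Pfkfb3 overlapped, as did those of Tigar at 5.93 ± 0.128 and Pfkfb4 at 5.56 ± 0.622.

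The order at the top in controls depends on the length that is used. With the longest transcript Pfkm and Pfkl overlapped, and with the coding length Pfkl came before Pfkfb3 and Pfkm, with neighbouring ranges that overlapped. By CPM, with no length, Pfkl was above Pfkm in all 4 controls and their ranges did not overlap. Pfkp is most affected, since its exon union of 13.4 kb is long beside a coding length of 2.35 kb: it had 5.62 RPKM by the former and 32.0 RPKM by the latter in controls. By every length, and by CPM, Pfkl was first in Foxp1cKO cortex and Pfkfb2 last in both groups.

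In both Foxp1cKO libraries the muscle-type subunit took a smaller share of the phosphofructokinase transcripts than in any control, and the liver-type subunit a larger one. Of the summed RPKM of the 3 subunits, Pfkl took 34.0%, 32.9%, 29.0% and 43.0% in controls 1 to 4, and 53.8% and 54.6% in Foxp1cKO 1 and 2. Pfkm took 56.0%, 56.1%, 56.6% and 50.3% in the controls, and 32.2% and 31.8% in the Foxp1cKO libraries. For both subunits the Foxp1cKO shares lay outside the control range, with mean differences of 19.4 points for Pfkl and -22.8 points for Pfkm. Pfkp took 6.72% to 14.4% in the controls and 13.7% and 14.0% in the Foxp1cKO libraries, and these overlapped. The gap for Pfkl was narrower by CPM, with no length: it took 52.6% in control 4 against 54.8% and 55.7% in Foxp1cKO 1 and 2. The smaller Pfkm share came with a Pfkm level close to that of the controls, while the sum of the 3 subunits was 1.83-fold higher in CPM (294 ± 18.8 against 539 ± 25.3, SD) and 1.56-fold higher in RPKM.

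Within the PFKFB enzymes, Pfkfb3 took the larger part in every library. It held 62.9%, 63.0%, 60.5% and 61.3% of the summed RPKM of Pfkfb2, Pfkfb3 and Pfkfb4 in controls 1 to 4, and 70.1% and 83.2% in Foxp1cKO 1 and 2. Pfkfb4 held 34.9% to 38.0% in the controls, and 28.7% and 16.0% in the Foxp1cKO libraries. Both shares lay outside the control range. The controls differed little here, with an SD of 1.24 points for Pfkfb3, although their Pfkfb3 levels spread over 1.51-fold, and Pfkfb4 put the controls in the same order as Pfkfb3. Pfkfb2 held at most 2.14% in any library.

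**Figure D3:**
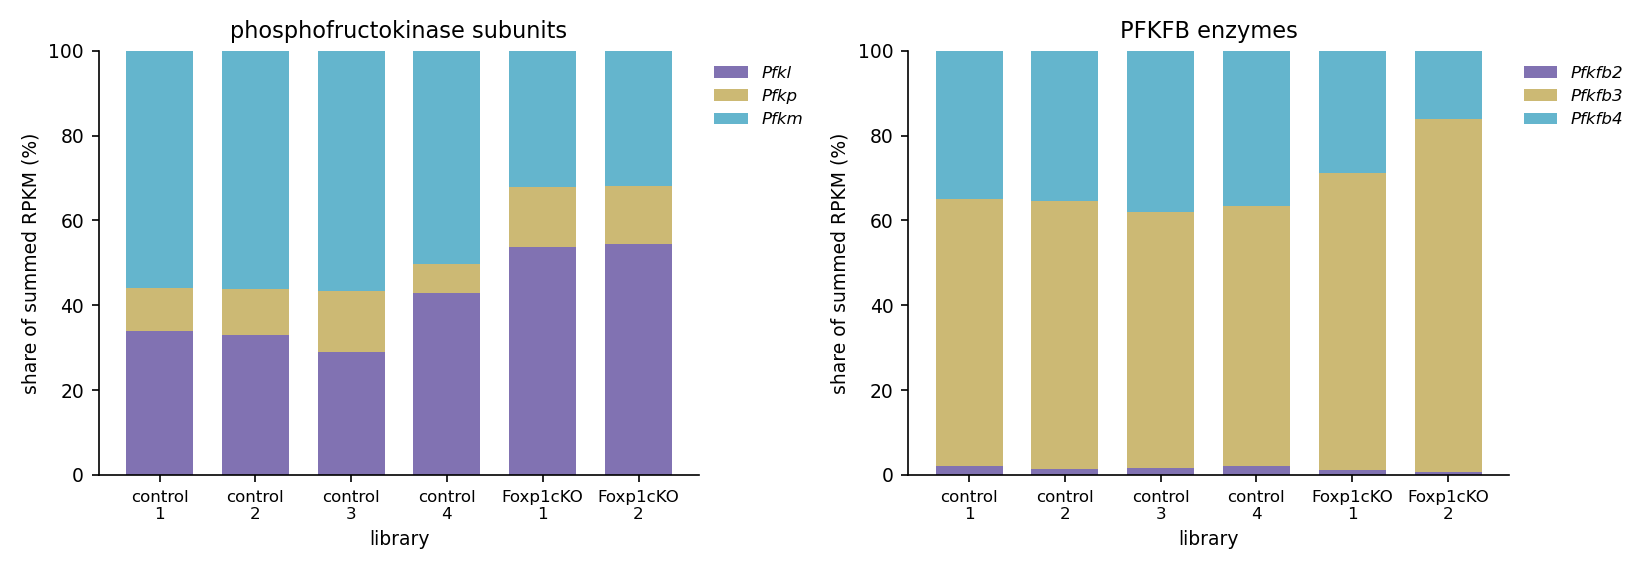
Share of each gene in the summed RPKM of its family (y axis, in percent) in each of the 6 libraries (x axis), for the 3 phosphofructokinase subunits on the left and the 3 PFKFB enzymes on the right. Pfkl takes 29.0% to 43.0% in the controls and 53.8% to 54.6% in the Foxp1cKO libraries, and Pfkfb3 takes 60.5% to 63.0% and 70.1% to 83.2%.

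Ratios of 2 genes within a library do not depend on its scaling, so 7 pairs were compared between the groups by an exact two-sided permutation test over libraries. With 4 libraries against 2, the smallest p this test can give is 0.133, so no pair could pass 0.05. The log2 ratio of Pfkl over Pfkm was 0.28, 0.23, 0.04 and 0.77 in controls 1 to 4 and 1.74 and 1.78 in Foxp1cKO 1 and 2, a difference of 1.43 between the means, with no overlap (exact p = 0.133, 0.187 adjusted over the 7 pairs). The ratio of Pfkp over Pfkm had an even wider spread in the controls, from -0.90 to 0.03, and stood at 0.81 and 0.79 in the Foxp1cKO libraries, a difference of 1.22 with no overlap (exact p = 0.133).

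The ratio of Pfkl over Pfkp overlapped between the groups. On the log2 scale it ran from 0.01 in control 3 to 1.67 in control 4, and both Foxp1cKO values, 0.93 and 0.99, lay inside that range (difference 0.21, exact p = 0.667). Without control 3 the sign of that difference turned, to -0.04. The 2 subunits ordered the controls in opposite ways, with control 4 highest for Pfkl and lowest for Pfkp and control 3 lowest for Pfkl and highest for Pfkp. Control 4 had the highest summed red cell markers and the lowest summed neuron markers of the controls. Control 3 had the highest summed neuron and ventral telencephalon markers, and the part of any of these markers in the ratios was not tested.

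Pfkfb3 parted from each of the enzymes it was set against. The difference between the groups in its log2 ratio was 1.20 over Pfkfb2, 1.06 over Pfkfb4 and 1.46 over Tigar, in each case with no overlap and the smallest p the test can give (exact p = 0.133). These sizes turned on which Foxp1cKO library was kept: without Foxp1cKO 2 they were 0.76, 0.51 and 1.00, and without Foxp1cKO 1 they were 1.64, 1.61 and 1.91. The ratio over Pfkfb4 was 1.48, 1.46, 1.30 and 1.37 in controls 1 to 4, an SD of 0.08, and 1.92 and 3.01 in Foxp1cKO 1 and 2. The ratio of Pfkfb4 over Pfkfb2 overlapped between the groups (difference 0.14, exact p = 0.80).

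**Figure D4:**
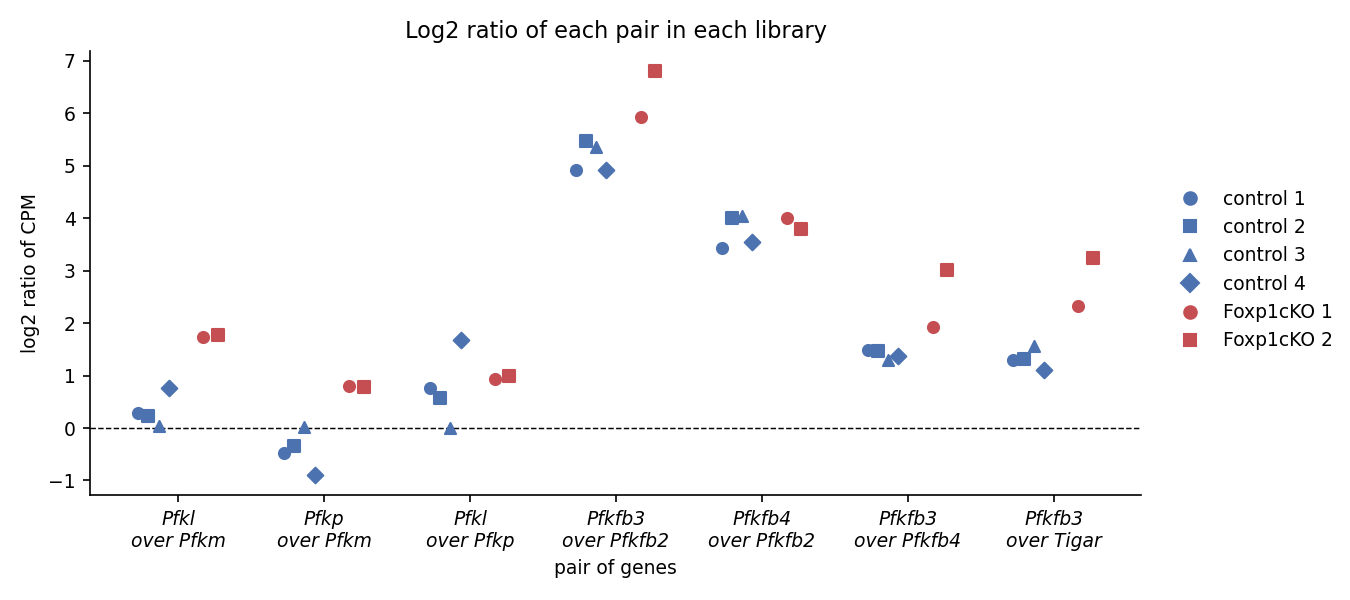
Log2 ratio of CPM (y axis) for the 7 pairs of genes (x axis) in each of 4 controls (blue) and 2 Foxp1cKO libraries (red). The Foxp1cKO points lie above all controls for every pair but Pfkl over Pfkp and Pfkfb4 over Pfkfb2, and the Pfkfb3 ratios differ between the 2 Foxp1cKO libraries.

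Genomic sequence next to the start sites was read because Pfkl, Pfkp and Pfkfb3 had higher values together and HIF-1 is known to bind the core letters ACGTG and GCGTG. RefSeq start sites on GRCm38.p6 gave 13 windows of 250 bases upstream, covering all 7 genes. Both strands were searched, and ACGTG lies inside CACGTG, so a CACGTG counts as ACGTG on each strand. The stretches shown are for the 3 genes with higher values, for Pfkm, whose values overlapped between the groups, and for Tigar, which had lower values. They leave out the bases that GENCODE M21 places in exons of the gene. Capitals mark ACGTG or GCGTG on either strand.
Pfkl, chr10:78009808-78010004, - strand: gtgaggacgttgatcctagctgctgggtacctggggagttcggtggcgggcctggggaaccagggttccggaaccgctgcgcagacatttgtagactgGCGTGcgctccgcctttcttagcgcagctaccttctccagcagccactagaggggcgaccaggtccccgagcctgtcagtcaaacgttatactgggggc
Pfkp, chr13:6648778-6649021, - strand: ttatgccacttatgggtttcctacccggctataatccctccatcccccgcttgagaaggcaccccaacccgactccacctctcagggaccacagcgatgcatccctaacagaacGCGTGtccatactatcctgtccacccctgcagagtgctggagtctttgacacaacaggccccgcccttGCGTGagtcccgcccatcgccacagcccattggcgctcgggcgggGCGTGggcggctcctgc
Pfkfb3, chr2:11502102-11502340, - strand: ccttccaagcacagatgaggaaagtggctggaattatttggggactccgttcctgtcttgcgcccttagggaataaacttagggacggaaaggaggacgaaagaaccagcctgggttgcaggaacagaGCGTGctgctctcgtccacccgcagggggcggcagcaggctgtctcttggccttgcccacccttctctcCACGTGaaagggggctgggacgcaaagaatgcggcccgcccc
Pfkm, chr15:98092339-98092588, + strand: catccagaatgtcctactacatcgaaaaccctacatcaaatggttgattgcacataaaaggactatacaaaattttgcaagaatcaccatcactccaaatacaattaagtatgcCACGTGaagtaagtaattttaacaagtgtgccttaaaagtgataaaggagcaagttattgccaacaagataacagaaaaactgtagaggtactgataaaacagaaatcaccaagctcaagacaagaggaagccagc
Tigar, chr6:127109558-127109802, - strand: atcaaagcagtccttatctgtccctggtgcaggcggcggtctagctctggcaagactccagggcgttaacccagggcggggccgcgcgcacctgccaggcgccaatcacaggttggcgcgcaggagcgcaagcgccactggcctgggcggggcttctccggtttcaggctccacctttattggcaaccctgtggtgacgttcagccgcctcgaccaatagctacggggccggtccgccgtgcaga
Pfkl held 1 GCGTG, 99 to 95 bases upstream of its start. Pfkp held 3 GCGTG, the nearest 23 to 19 bases upstream. The Pfkfb3 window shown held CACGTG, 53 to 48 bases upstream, and 1 GCGTG, and the window at its other start site held 1 ACGTG. Yet the Pfkm window shown also held CACGTG, and so did a window of Pfkfb2, while the Tigar window held neither letter group. Counts were made over whole windows, including the exon bases left out of the stretches shown. The only match of Pfkfb4 and the ACGTG at the other Pfkfb3 start site lie in such exon bases. In all, 6 of the 7 genes held ACGTG or GCGTG in at least 1 window, against 41.52% of 26994 genes with such windows in RefSeq. Counted by window it was 11 of 13, but windows of Pfkm overlap and share a site, windows of Pfkfb2 overlap as well, and a gene with several windows has more chances of a match. Over 32817 windows of all genes either letter group was in 38.57%, with ACGTG in 16.57%, GCGTG in 28.14% and CACGTG in 6.021%. The matches describe letters alone, and they were found beside genes with higher values and beside genes whose values overlapped.

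Gpi1 before the phosphofructokinase step and Aldoa after it had higher values in the same libraries, while the aldolase Aldoc had overlapping values. The lists used from here on were chosen with earlier results of these data known, and their counts are given as a description. Of 16 other glycolytic enzymes in the table, 2 rose and 0 fell by edgeR: Gpi1, which makes fructose 6-phosphate, with 258 CPM in controls and 685 CPM in Foxp1cKO cortex (log2 fold change 1.41, adjusted p = 0.00963), and Aldoa, which splits fructose 1,6-bisphosphate, with 199 and 599 CPM (1.59, adjusted p = 0.0104). The median of the list, as a log2 fold change, stood at 0.75, against -0.0044 over all genes. Non-overlapping higher values were found for 11 of the 16, and for 11.5% of all genes. Its extremes were Pklr, the liver and red cell pyruvate kinase, at 2.24 from only 0.160 CPM in controls, and Aldoc at -0.19, neither called. The symbol Aldoa belongs to 2 identifiers in the table, whose reads may be split: the value is that of ENSMUSG00000030695.16, and ENSMUSG00000114515.2 had 0.18 at a mean of 5.13 CPM.

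Of 6 genes for glucose and lactate transport and lactate dehydrogenase, 1 rose and 0 fell. It was Slc2a3, a glucose transporter, at 20.2 CPM in controls and 45.5 CPM in Foxp1cKO cortex (log2 fold change 1.17, adjusted p = 0.00963 by edgeR). The list's median was 1.24. The monocarboxylate transporter Slc16a3 had the highest value, 2.89 (adjusted p = 0.0658), and Ldhb the lowest, -0.15 (adjusted p = 0.635). Of the 2 fructose bisphosphatases, which run the step in reverse, 0 were in the table.

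The pentose phosphate pathway, which draws on the sugar ahead of this step, had 0 of 10 genes called. Its median was -0.13, against -0.0044 over all genes, with 8 of 10 values lower. Non-overlapping lower values were found for 2 of the 10, and for 13.1% of all genes. Without Foxp1cKO 1 the median was -0.060. Its extremes were H6pd at 0.46 (adjusted p = 0.435) and Taldo1 at -0.25 (adjusted p = 0.279).

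Regulators of the members, and other targets of those regulators, were examined at the transcript level. Of 14 HIF-1 targets outside glycolysis, 5 rose and 0 fell by edgeR, and the median was 1.22. They were the angiogenic factor Vegfa (log2 fold change 1.84, adjusted p = 0.00165), the mitophagy receptor Bnip3 (2.53, 0.00843), the peptide hormone gene Adm (2.43, 0.0130), the collagen prolyl hydroxylase P4ha1 (1.40, 0.0207) and the pyruvate dehydrogenase kinase Pdk1 (2.16, 0.0178). The lowest was Ndrg1 at -0.33 (adjusted p = 0.836). Of 10 HIF subunits and oxygen-sensing hydroxylases, 0 were called and the median was 0.044. Hif1a itself had a log2 fold change of 0.06 (adjusted p = 0.83), Egln3, an oxygen-sensing hydroxylase, had the highest at 1.72 (adjusted p = 0.0758), and Vhl the lowest at -0.24 (adjusted p = 0.414).

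For the p53 list, named because Tigar is a p53 target, 0 of 14 genes were called and the median was 0.086. Values differed in both directions: 6 of the 14 were higher and 3 lower without overlap, against 11.5% and 13.1% of all genes. Trp53 had -0.21 (adjusted p = 0.409), Cdkn1a, a cell cycle inhibitor, had the highest value at 1.03 (adjusted p = 0.0919) and Aen the lowest at -0.32 (adjusted p = 0.313). Of 8 AMPK subunits and ubiquitin ligase factors that act on the PFKFB3 protein, 0 were called, the median was -0.097 (-0.054 without control 3), and values ran from -0.26 for Prkag1 to 0.16 for Prkab2. By an unadjusted p under 0.05, which 13% of all genes reached, 12 of the 16 glycolytic enzymes, 4 of the 6 transport and lactate genes, 1 of the 10 pentose phosphate genes, 3 of the 10 HIF subunits and hydroxylases, 11 of the 14 HIF-1 targets, 6 of the 14 p53 genes and 2 of the 8 AMPK and ligase genes passed. By DESeq2, 7, 4, 1, 2, 11, 1 and 1 genes of these lists were called, in that order.

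**Figure D5:**
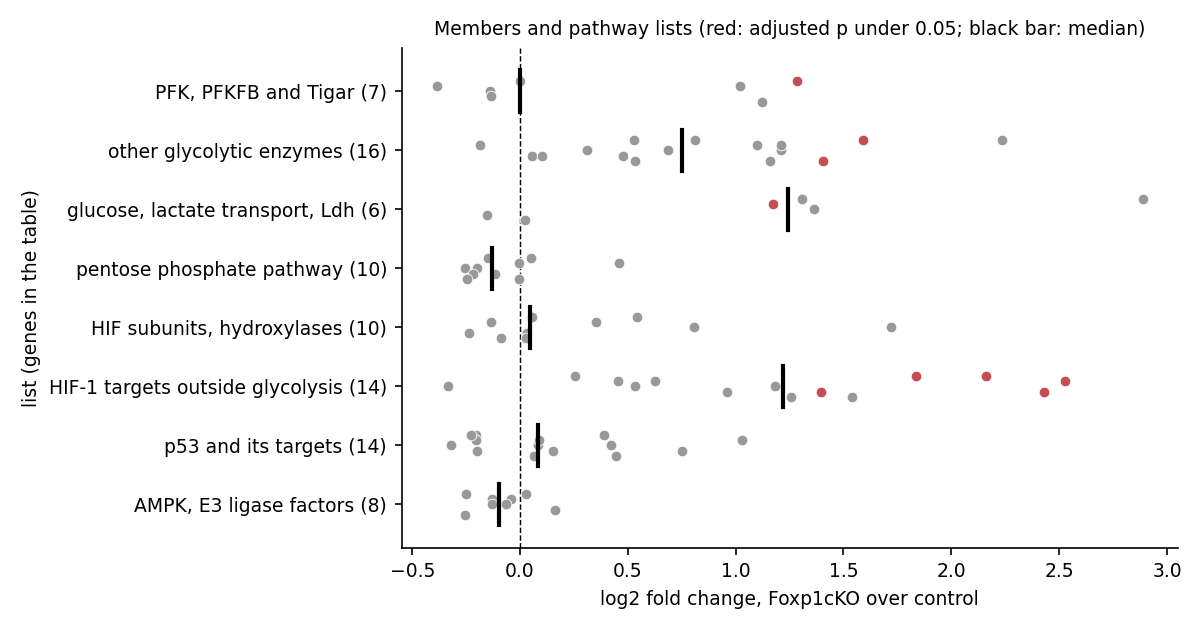
Log2 fold change of Foxp1cKO over control (x axis) for each gene of the members' group and of 7 lists around it (y axis, with the number of genes in the table), with genes past an adjusted p under 0.05 by edgeR in red and the list's median as a black bar. Medians lie at 0.75 for the other glycolytic enzymes, 1.24 for transport and lactate genes and 1.22 for HIF-1 targets, and between -0.13 and 0.086 for the other 4 lists.

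Markers of other cells in the tissue were mostly not called, by a test that called 0.152% of all genes. Of 9 endothelial genes 1 was called, the VEGF receptor Flt1 (log2 fold change 1.64, adjusted p = 0.0179 by edgeR). The 9 genes had 6 higher and 3 lower values with a median log2 fold change of 0.024, so Flt1 did not stand for the list. They summed to 149 to 228 CPM in controls and 207 to 255 CPM in Foxp1cKO cortex. All 5 pericyte genes had higher values, none called, with sums of 68.2 to 88.3 and 111 to 116 CPM that did not overlap. Of 9 red cell genes 8 had higher values, none called, with sums of 1100 to 3544 and 3849 to 4143 CPM that did not overlap either. Microglial genes summed to 20.7 to 32.9 and 31.8 to 33.7 CPM. Non-overlapping higher values were found for 2 of 9 endothelial, 3 of 5 pericyte, 4 of 9 red cell and 2 of 7 microglial genes. Such values were found for 0 of 8 ventral telencephalon and 0 of 6 meningeal and mesenchymal genes, and for 11.5% of all genes. The 8 ventral telencephalon genes, none called, summed to 824 CPM in control 3 against 232 to 356 CPM in the other controls. In Foxp1cKO 1 and 2 they summed to 515 and 384 CPM. The 6 meningeal and mesenchymal genes, none called, summed to 40.4 to 269 CPM in controls and 59.8 to 150 CPM in Foxp1cKO cortex. No marker of these lists stayed under 3 counts in every library, and the part of these cells in the values of the 7 genes was not tested.

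The genes most like each member were found as the smallest root mean square difference in centred log2 CPM over the 6 libraries, among 13854 other genes of at least 1 CPM on average. For Pfkl they were Gpi1 (0.0859), Fam162a (0.127) and Tmem255a (0.137). For Pfkfb3 they were Kif17 (0.0798), Ddit4 (0.0872) and Adora2a (0.149). For Pfkp they were Vldlr (0.145), Arpp21 (0.158) and Fstl4 (0.161). Few genes were this near: 5 genes lay within 0.15 of Pfkl, 3 of Pfkfb3 and 1 of Pfkp.

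The members with small differences had many such neighbours, with 3998 genes within 0.15 of Pfkm, 1402 of Pfkfb2, 1344 of Pfkfb4 and 1835 of Tigar. The nearest were Akap1, Dnal4 and Ccdc107 for Pfkm, Ubxn11, 2310061I04Rik and Dnaja4 for Pfkfb2, Arhgap33, Myo18a and Adgrl1 for Pfkfb4, and Dbi, Swsap1 and Ddx5 for Tigar. Nearness in 6 libraries is a description of these profiles only.

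The 7 transcripts could be told apart by sequence, since no word of 50 bases was shared between any of them in GENCODE M21. Where reads could be split, the partner was another locus. Pfkfb2 shares 15.9% of its words with the read-through gene model Gm29427 on the same strand, and reads there could be dropped as ambiguous under the counting mode of the study. Pfkm shares 8.83% of its words with Gm26513, which overlaps its exons on the same strand, and reads there could be dropped likewise. Pfkp overlaps Pitrm1 and Pfkm overlaps Senp1 in exons on the opposite strand, Pfkfb2 overlaps Yod1 and Tigar overlaps the antisense gene Platr31 in the same way, and the strand setting of the counting was not given in the sources used here. Pitrm1, Senp1 and Yod1 had log2 fold changes of -0.06, -0.22 and 0.13, none called. Gm26513, Gm37163, Gm10851 and Gm37975 also overlap Pfkm, Pfkfb2 and Pfkfb3 and were not among the genes of the table.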

How the data were processed

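Bulk RNA-Seq of 4 control and 2 Foxp1cKO lateral cortices was used. Per the labels and the study's methods, the authors made stranded libraries, used STAR for alignment to mm10 and HTSeq 0.9.1 (union mode) for counting, and dropped low genes. The deposited counts are whole and unnormalized, and the deposited VST values, which the authors made with DESeq2 1.30.1, are on a log2-like scale. Identifiers were matched to GENCODE M21 (15605 with their version, 1442 without it, of 17068).

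Counts were tested in R 4.3.3 with edgeR 4.0.16 (TMM, quasi-likelihood, group alone, all genes, Benjamini-Hochberg, adjusted p under 0.05). DESeq2 1.42.0, limma 3.58.1 on the VST values, other scalings and filters, a replicate block and leaving out each library were alternatives. The litter, which the authors modelled, was not used. Log2 CPM for ratios and likeness used a prior count of 2, and exact tests used scipy 1.17.1. Tests were tried on simulated data. Named genes were the members, Foxp1, Trp53, Hif1a, list genes that were called or extreme, called markers, overlapping genes and the 3 nearest genes of each member; Acta1 and Des were named after their values were seen. The members and lists were chosen with earlier results of these data known. Replicates differed far beyond counting error (chi-square per gene 25.9 to 193).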

Additional observations from a re-analysis of the deposited data

Results flagged for a closer look

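Of 37 values of the 4 controls, 2 had a library whose gap to the others was above Dixon's 95% limit for 4 samples, and chance flags about 1 in 20 such groups. The share of Pfkm among the phosphofructokinase subunits was 50.3% in control 4 against 56.0% to 56.6% in the other controls. The summed CPM of red cell markers was 3544 in control 4 against 1100 to 1451 in the other controls.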

How the results depend on the processing

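The call of Pfkl held with limma, other scalings, filters and the robust fit, and was lost with the replicate block (log2 fold change 1.31, adjusted p = 0.0779 by edgeR) and when control 1, control 2 or either Foxp1cKO library was left out (1.21 to 1.37 over all 6 omissions). DESeq2 also called Pfkp (1.02), Pfkfb3 (1.13) and Tigar (-0.38), and called 507 genes in all (310 higher, 197 lower) and 4 members, against 26 genes and 1 member. Leaving out a library gave 2 to 96 genes, the 2 without control 2 and the 96 without control 4, and 0 to 1 members. Ranges without a library were 0.84 to 1.21 for Pfkp, 0.61 to 1.49 for Pfkfb3, -0.43 to -0.35 for Tigar and -0.12 to 0.11 for Pfkfb4, whose sign turned, and -0.041 to 0.51 for the log2 ratio of Pfkl over Pfkp, which turned without control 3. With coding length or no length, the share differences were 13.5 and 13.4 points for Pfkl, -16.6 and -16.6 for Pfkm, 13.1 and 12.04 for Pfkfb3 and -12.2 and -11.1 for Pfkfb4. Without a library they were 8.15 to 21.3 for Pfkfb3 and -20.3 to -7.54 for Pfkfb4. The median of HIF subunits and hydroxylases was 0.061 with total counts, 0.060 with the replicate block and -0.023 to 0.13 without a library. That of HIF-1 targets was 1.16 with the block and 0.80 to 1.54 without a library, that of p53 genes 0.029 to 0.10, that of the pentose phosphate pathway -0.18 to -0.060 and that of the AMPK list -0.14 to -0.054. Causes were not tested. Of 317 alternative values, 262 kept their direction and side or stayed close to the reported value, 42 moved further, 9 crossed the threshold and 4 turned in sign.

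Libraries 1 and 2 of each group share a number, and no source says that a number marks a litter or day, so the block was kept out of the main test. The replicate block called 1 gene and 0 members, where the same 4 libraries without it called 63 genes (56 higher, 7 lower) and 2 members, Pfkp among them (1.02). Differences between libraries 1 and 2 correlated at -0.117 across genes between the groups, and the crossed pairing, chosen like the fit without the block after seeing the data, called 1252 genes (817 higher, 435 lower) and 4 members. A lone Foxp1cKO library was assumed to vary like the controls. Depth limited Pfkfb2 most, at 90 to 147 counts.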
